A study of Mus musculus with 240 samples.

Results

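The genes described here are 10 genes of antigen presentation by major histocompatibility complex (MHC) class I, taken by symbol from a table of 34623 genes: the heavy chains H2-K1 and H2-D1, the light chain B2m, the peptide transporter genes Tap1 and Tap2, the loading factor Tapbp, the transactivator Nlrc5 and the immunoproteasome subunits Psmb8, Psmb9 and Psmb10. All 10 had a row and all 10 passed the filter on low counts in the bulk samples. RNA came from oligodendrocyte precursor cells (OPCs) and brain tumour cells of mice, cut from brain sections by laser capture microdissection. Bulk samples were captured from 37 mice, called WT (wild type) or CKO (Trp53-/- Nf1-/-, mutants that lack the tumour suppressors p53 and neurofibromin), all treated with tamoxifen and named by days from its start (dpi). They comprised 7 CKO and 5 WT animals at 12 dpi, 7 CKO and 5 WT at 90 dpi, and 7 tumours of the CKO genotype and 6 WT animals at 150 dpi, in both sexes. The small libraries all came from CKO mice: 112 10-cell libraries and 80 pool-and-split controls, in which a larger capture is divided into library-sized portions, from 12 and 90 dpi. The titles mark the bulk cells as tdT-positive, and the promoter that drove the recombinase is not given in the sources used here. At 150 dpi the CKO samples are labelled tumour cells and the WT samples OPCs, so tumour formation and genotype cannot be told apart in that comparison.

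MHC class I molecules display peptides from a cell's own proteins to CD8 T cells. The immunoproteasome cuts such peptides, the TAP transporter built from Tap1 and Tap2 carries them into the endoplasmic reticulum, tapasin (Tapbp) holds empty class I molecules at the transporter, and B2m stabilises the loaded heavy chain. Neural cells usually hold little class I, and interferon gamma, acting in part through Irf1 and Nlrc5, is the classical inducer of the whole set.

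Of the 10 genes, 7 lie on chromosome 17, in or beside the mouse MHC (coordinates are those of GRCm38). Tapbp spans 33915899 to 33929288 on the plus strand, H2-K1 33996017 to 34000333 on the minus strand and H2-D1 35262730 to 35267499 on the plus strand. Psmb9 (34181988 to 34187764, minus), Tap1 (34187553 to 34197225, plus), Psmb8 (34197721 to 34201454, plus) and Tap2 (34203527 to 34216321, plus) are neighbours, and the first bases of Psmb9 and Tap1 overlap on opposite strands. B2m lies on chromosome 2 (122147686 to 122153083), and Nlrc5 (94434356 to 94527272) and Psmb10 (105935735 to 105938444) on chromosome 8. Whether reads were counted by strand is not given in the sources used here, so reads from the shared bases of Psmb9 and Tap1, and of B2m and Patl2 on the opposite strand, cannot be assigned with certainty. Tapbp overlaps Zbtb22 on the same strand, and Tap2, Tapbp, Nlrc5, Psmb8 and Psmb10 overlap noncoding genes. The transcripts of H2-K1 and H2-D1 were 88.2% identical over 1513 bases, and 24 other genes aligned to H2-K1 over more than 50% of its length (closest H2-Q4, 91.4%). Counts of these heavy chains are therefore uncertain where reads could be shared, while the other 8 genes had no such copy.

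The start regions below are shown for the heavy chains, whose windows share 3 motifs at equal spacing, and for B2m and Tap1, which hold fewer of them. Neither Psmb8 nor Psmb10 had the shared kappaB, TGACGC or CCAAT letters, and Tapbp had CCAAT. RefSeq's promoter table (GRCm38.p6, 250 bases before to 50 after each start) held 8 of the 10 genes, not Tap2 or Nlrc5. Capitals mark the matches, on either strand, to 5 motifs: the palindromic kappaB site (the first run of capitals in H2-K1 and H2-D1), a cyclic AMP response element core (TGACGC), the CCAAT box (CCAAT, or ATTGG on the other strand), the interferon-stimulated response element core (GAAA at each end of any pair of bases) and the gamma-activated site (TTC and GAA around any 3 bases). The windows are H2-K1 at chr17:34000298-34000597 (minus), H2-D1 at chr17:35262844-35263143 (plus), B2m at chr2:122147437-122147736 (plus) and Tap1 at chr17:34187306-34187605 (plus).
H2-K1: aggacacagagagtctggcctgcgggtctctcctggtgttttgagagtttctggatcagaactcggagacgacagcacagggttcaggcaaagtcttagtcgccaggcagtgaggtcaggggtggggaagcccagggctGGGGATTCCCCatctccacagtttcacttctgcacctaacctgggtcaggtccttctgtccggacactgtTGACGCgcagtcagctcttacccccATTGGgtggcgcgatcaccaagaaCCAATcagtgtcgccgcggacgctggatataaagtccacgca
H2-D1: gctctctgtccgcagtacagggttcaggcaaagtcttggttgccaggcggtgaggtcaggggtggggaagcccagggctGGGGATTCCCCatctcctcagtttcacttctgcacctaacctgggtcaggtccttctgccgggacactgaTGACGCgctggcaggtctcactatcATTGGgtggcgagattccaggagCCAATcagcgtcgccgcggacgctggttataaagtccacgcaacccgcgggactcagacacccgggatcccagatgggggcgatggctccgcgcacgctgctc
B2m: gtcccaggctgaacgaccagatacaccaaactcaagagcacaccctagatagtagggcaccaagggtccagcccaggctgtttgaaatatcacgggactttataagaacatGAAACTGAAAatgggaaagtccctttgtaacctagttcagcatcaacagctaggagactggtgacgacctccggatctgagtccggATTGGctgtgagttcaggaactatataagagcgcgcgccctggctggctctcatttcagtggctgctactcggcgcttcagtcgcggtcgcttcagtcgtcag
Tap1: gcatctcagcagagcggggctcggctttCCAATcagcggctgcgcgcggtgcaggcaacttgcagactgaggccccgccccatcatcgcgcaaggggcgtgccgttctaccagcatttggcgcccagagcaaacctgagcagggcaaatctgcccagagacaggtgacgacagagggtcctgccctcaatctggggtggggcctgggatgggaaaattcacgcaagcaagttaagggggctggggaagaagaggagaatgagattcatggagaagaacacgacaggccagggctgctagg
The kappaB letters stood in H2-K1 and H2-D1 and in only 10 of 32817 windows of the table (0.0305%), which belong to 9 genes, H2-Q6 among them. In both heavy chain windows the cyclic AMP response element core (7.39% of all windows) began 70 bases after kappaB, and a reversed CCAAT box (37.4% of all windows, either strand) began 25 bases after that core. Matches within a window did not overlap each other. The interferon-stimulated core (3.43% of windows) matched in B2m as GAAACTGAAA, 139 bases before the start, and the gamma-activated site (8.29%) in Psmb8, 97 bases before the start, as TTCCCAGAA. CCAAT stood in 6 of the 8 genes, and Psmb10 had no match to any of the 5 motifs. The windows of Tap1 and Psmb9 share 275 bases, read from opposite strands. Such matches describe these exact letters only, and looser forms of the motifs were not searched for in any window. No binding was measured.

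Depth ran from 0.0937 to 23.2 M counts in the bulk libraries (1 M is 1000000 counts; median 10.0 M), from 1.64 to 6.49 M in the 10-cell and from 1.91 to 5.16 M in the pool-and-split libraries. Animal WT_21167 at 90 dpi had only 93694 counts in all, spike-ins left out, of which 5 fell on H2-K1 and 0 on Tap1, Tap2, Tapbp, Nlrc5 and Psmb8. Levels in bulk are counts per 1000000 (CPM) of the scaled total of each animal. The labelled cell type was checked on 10 OPC markers, whose summed level was 2247 to 4256 CPM in WT at 150 dpi and 4871 to 12680 CPM in tumours. In the same WT animals 8 neuron markers summed to 6101 to 9445 CPM, and 12 microglia and macrophage markers to 137 to 172 CPM. There 6 astrocyte markers summed to 2466 to 3820 CPM and 8 oligodendrocyte markers to 1543 to 3128 CPM. In bulk samples, fewer cells of a type and less RNA per cell cannot be told apart.

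In the WT bulk captures at 150 dpi, labelled OPCs, the class I light chain was the highest of the set, and the transactivator the lowest. These captures also held markers of other cell types, whose part in the levels was not tested. Per kilobase of transcript, mean levels in WT at 150 dpi were 99.7 ± 35.6 CPM for B2m, 29.3 ± 10.9 for H2-D1, 21.7 ± 8.81 for H2-K1 and 7.69 ± 3.16 for Psmb10 (SD, n = 6). Tapbp (0.986 ± 0.976), Tap1 (0.945 ± 0.517), Psmb9 (0.860 ± 0.574) and Psmb8 (0.732 ± 0.442 CPM per kilobase) lay within their SD of each other, and Tap2 (0.463 ± 0.314) lay within the SD of each of these. Nlrc5 was lowest (0.0901 ± 0.0651 CPM per kilobase, SD, n = 6). H2-D1 and H2-K1 also lay within their SD of each other. Nlrc5 had only 0 to 13 counts per animal in this group, so its level there is poorly fixed.

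Before tumours formed, no class I gene was called different between CKO and WT cells. At 12 dpi 0 of 10 were called by edgeR's quasi-likelihood test at an adjusted p under 0.05, where 0.0183% of all 16349 genes were called (0.00612% higher, 0.0122% lower), and 1 had an unadjusted p under 0.05 (DESeq2 also called 0). That gene was Tapbp, with 0, 2.21 and 5.82 CPM (lowest, median, highest) in 7 CKO animals and 4.02, 8.06 and 14.0 CPM in 5 WT animals. Its groups overlapped, and the log2 difference was -1.45 (SE 0.58, unadjusted p 0.0167, adjusted p 0.997). At 90 dpi 0 of 10 were called against 0.0489% of all genes (0.0245% higher and 0.0245% lower), again with 1 at an unadjusted p under 0.05 (DESeq2 called 0). Here it was Psmb8, which had 0.491 to 14.4 CPM in CKO (median 1.86) and 0 to 1.54 CPM in WT (median 1.23), a log2 difference of 1.60 (SE 0.76, unadjusted p 0.0423, adjusted p 0.938). Its CKO group rests on 1 animal: CKO_20647 had 14.4 CPM and the other 6 at most 2.69, and without it the log2 difference was 0.55. The median log2 difference of the members was -0.28 at 12 dpi and 0.37 at 90 dpi, beside 0.03 and 0.04 over all genes tested.

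The libraries of CKO_20647 differed from each other in these genes. Of its 2 libraries, the first had 53.0 CPM of H2-K1, 127 of H2-D1 and 245 of B2m (here per 1000000 counts of the library), and the second 2.24, 13.0 and 98.0. The second library had 0 counts of Tap1, Tap2, Tapbp, Nlrc5 and Psmb9, but 19.7 CPM of Psmb8 against 4.96 in the first and 38.6 against 14.6 CPM of Psmb10. The high Psmb8 of this animal thus came from the library in which Nlrc5, Psmb9 and the transporter were not detected. No other animal with a pair of libraries had a member at 0 in just 1 of them.

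Time alone did not give a call either. Between 90 and 12 dpi, 0 of 10 were called in CKO (0% of all genes; 1 unadjusted p under 0.05, H2-D1, log2 difference 0.87, SE 0.38) and 0 of 10 in WT (0.00612%; 0 unadjusted). Between 150 and 90 dpi in WT 0 of 10 were called (0.0183% of all genes, 0.0122% higher and 0.00612% lower; 1 unadjusted, H2-D1, log2 difference 1.01, SE 0.45, adjusted p 0.558). The change of the CKO against WT difference from 12 to 90 dpi was called for 0 of 10 (0% of all genes; 0 unadjusted). DESeq2 called 0 members in each of these comparisons.

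**Figure D1:**
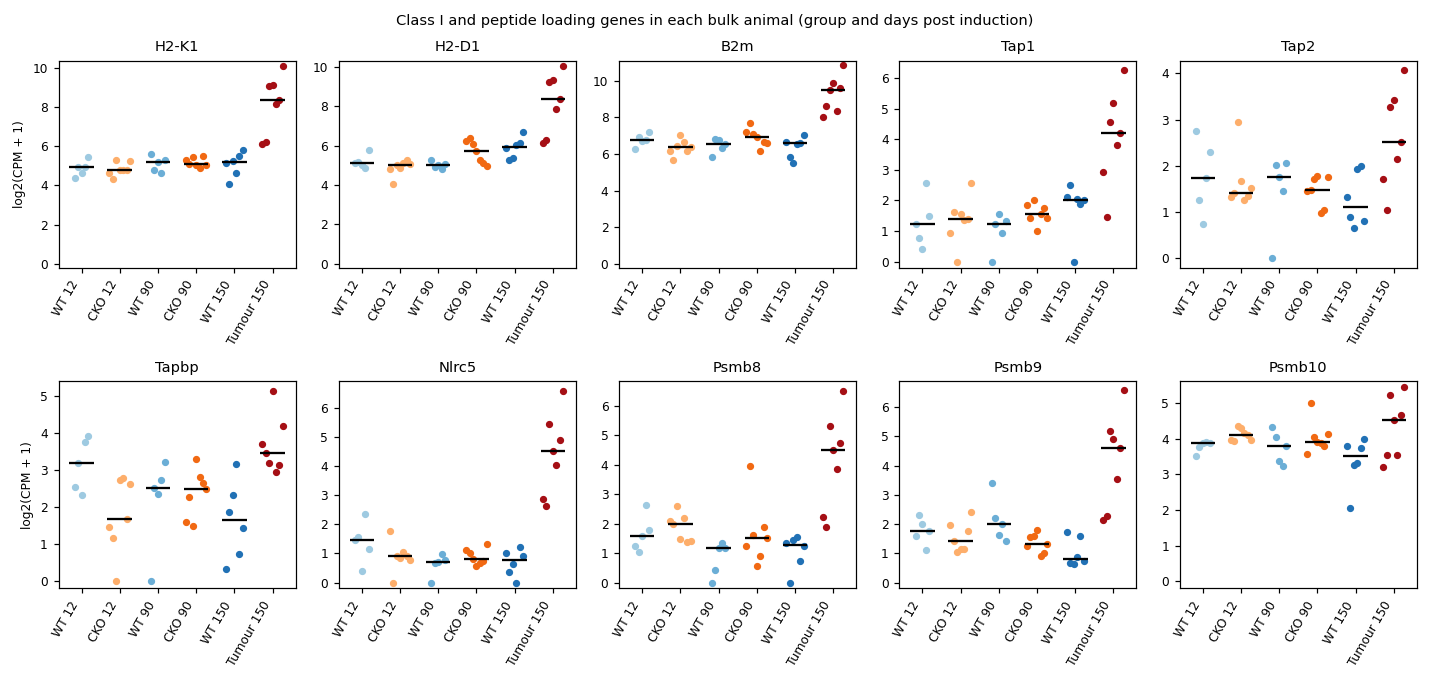
Each panel shows log2(CPM + 1) of 1 gene in every bulk animal (points), by group and dpi, with the group median as a line. Tumours lie above every WT animal of 150 dpi for H2-K1, B2m, Nlrc5, Psmb8 and Psmb9, and the earlier groups overlap for all genes but Psmb10 at 12 dpi.

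In the tumours all 10 genes rose over WT cells of the same dpi. The call rate among members, 10 of 10, stood beside 24.3% of all tested genes called higher (21.9% lower, 46.2% in either direction), and the members' median log2 fold change was 3.10 against 0.06 over all genes. Against CKO cells at 90 dpi 9 of 10 rose, all but Psmb10, where 26.4% of all genes were called higher (22.6% lower, 49.1% either way) and the members' median was 3.03 against 0.12. These 2 comparisons share the tumours. Under another scaling (RLE size factors) the median of all genes moved by 0.15 and 0.17, and every member kept its call.

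The heavy chains rose together. H2-K1 had 67.0, 331 and 1073 CPM (lowest, median, highest) in the 7 tumours, 16.0, 35.4 and 55.9 CPM in 6 WT animals at 150 dpi, and 28.3, 32.6 and 43.8 CPM in 7 CKO animals at 90 dpi. Every tumour was above every animal of both other groups, and H2-K1 was 12.1-fold higher than in WT (log2 3.60, SE 0.42, adjusted p 7.65e-09). H2-D1 had 67.9, 324 and 1032 CPM in tumours against 37.1, 60.8 and 101 CPM in WT. Its groups overlapped, since 5 of 7 tumours were above the highest WT animal, and it was 6.91-fold higher (log2 2.79, SE 0.42, adjusted p 1.05e-06). B2m, the light chain, had 261, 727 and 1807 CPM in tumours and 44.2, 94.3 and 128 CPM in WT, with no overlap (8.60-fold, log2 3.10, SE 0.34, adjusted p 2.25e-09).

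Nlrc5, which drives transcription of the class I genes, had the largest fitted change of the set. It had 5.12, 21.6 and 94.0 CPM in tumours, 0, 0.726 and 1.34 CPM in WT at 150 dpi and 0.491, 0.768 and 1.51 CPM in CKO at 90 dpi. The lowest tumour was above the highest animal of either group. The fitted rise was 48.2-fold over WT (log2 5.59, SE 0.68, adjusted p 1.83e-08) and 33.1-fold over CKO (log2 5.05, SE 0.58, adjusted p 4.23e-09), and its size depends on the few WT counts named above. Without Tumor_21354 the log2 rise was 4.92 over WT and 4.38 over CKO.

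Of the immunoproteasome, Psmb9 and Psmb8 rose strongly and Psmb10 little. Psmb9 had 3.40, 23.5 and 94.8 CPM in tumours against 0.567, 0.766 and 2.29 CPM in WT, with no overlap (25.6-fold, log2 4.68, SE 0.63, adjusted p 1.14e-07; without Tumor_21354 log2 3.94). Psmb8 had 2.69, 21.7 and 89.1 CPM against 0, 1.45 and 1.89 CPM, again with no overlap (22.5-fold, log2 4.49, SE 0.75, adjusted p 6.62e-06). Psmb10 had 8.24, 21.9 and 42.3 CPM in tumours and 3.19, 10.6 and 14.8 CPM in WT. Only 4 of 7 tumours were above the highest WT animal, and the rise was 2.18-fold (log2 1.13, SE 0.32, adjusted p 0.00371). Over CKO at 90 dpi Psmb8 rose by log2 3.06 (SE 0.63), by 4.11 without CKO_20647 and by 2.46 without Tumor_21354, and Psmb9 by 4.23 (SE 0.55) and by 3.53 without Tumor_21354. Against CKO at 90 dpi the log2 difference of Psmb10 was 0.45 (SE 0.29, adjusted p 0.203), and without CKO_20647 it was 0.74 (adjusted p 0.0316).

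The peptide transporter and tapasin rose too. Tap1 had 1.75, 17.6 and 75.7 CPM in tumours and 0, 3.06 and 4.64 CPM in WT (8.50-fold, log2 3.09, SE 0.64, adjusted p 0.00014; without Tumor_21354 log2 2.50), with 6 of 7 tumours above all WT animals. Tap2 had 1.08, 4.70 and 15.8 CPM against 0.567, 1.20 and 3.01 CPM (4.03-fold, log2 2.01, SE 0.54, adjusted p 0.00235), and Tapbp 6.67, 9.97 and 34.0 CPM against 0.255, 2.16 and 7.94 CPM (4.75-fold, log2 2.25, SE 0.59, adjusted p 0.00189; without WT_21593 log2 3.02). For each of Tap2 and Tapbp, 5 of 7 tumours were above the highest WT animal. The Tapbp rise over CKO at 90 dpi (log2 1.44, SE 0.54, adjusted p 0.0256) was not called without Tumor_16844 (log2 1.12, adjusted p 0.0794), without CKO_20642 (1.25, adjusted p 0.0638) or without CKO_20647 (1.35, adjusted p 0.0501).

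Across the set, 5 of 10 members had every tumour above every WT animal, where 6.72% of all genes did. Against CKO at 90 dpi 4 of 10 did (H2-K1, B2m, Nlrc5 and Psmb9), where 6.77% of all genes did. At 12 dpi, Psmb10 alone among the members was higher in every CKO animal (14.2 to 19.6 CPM) than in any WT animal (10.5 to 13.9 CPM), where 0.722% of all genes were. The edgeR log2 difference was 0.34 (SE 0.33, adjusted p 1). At 90 dpi 0 of 10 did so (0.447% of all genes). Per kilobase, the order of mean levels in tumours was B2m (866 CPM), H2-K1 (259), H2-D1 (203), Psmb9 (21.2), Psmb8 (17.1), Psmb10 (16.8), Tap1 (8.34), Tapbp (4.69), Nlrc5 (4.02) and Tap2 (1.90 CPM per kilobase). Per kilobase within tumours, B2m was above H2-K1, H2-K1 above H2-D1, H2-D1 above Psmb9, Psmb10 above Tap1 and Nlrc5 above Tap2 in 7 of 7. Psmb9 was above Psmb8 in 6 of 7, Tap1 above Tapbp in 5 of 7 and Tapbp above Nlrc5 in 4 of 7. Psmb8 was above Psmb10 in 2 of 7, so Psmb8 and Psmb10 had no order beyond their spread. These orders depend on the length used, that of the longest coding transcript. In CPM not divided by length, the tumour means were 419 for H2-K1 and 427 for H2-D1.

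**Figure D2:**
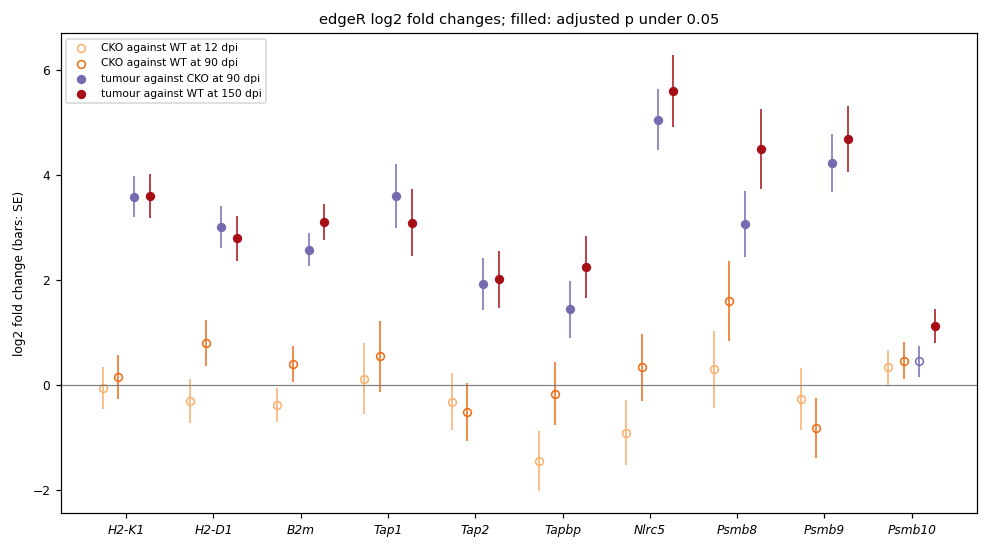
Log2 fold changes (points) with SE (bars) of the 10 genes in 4 comparisons of bulk groups, filled where the adjusted p was under 0.05. All 10 are filled for tumour against WT, 9 for tumour against CKO at 90 dpi, and none for CKO against WT.

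The tumour against WT difference at 150 dpi was larger than the CKO against WT difference at 90 dpi for 9 of 10 members, tested as an interaction, where 14.2% of all genes were called higher (15.8% lower, 30.0% either way) and the members' median was 2.62 against 0.04. The change in log2 difference was 5.49 (SE 0.83) for Psmb9, 5.26 (SE 0.91) for Nlrc5 and 3.44 (SE 0.56) for H2-K1, and 0.66 (SE 0.46, adjusted p 0.3) for Psmb10. Without Tumor_21354, 7 members were called, Psmb8 (log2 2.30, adjusted p 0.0758) and Tap1 (1.95, adjusted p 0.0868) being lost, and the change was 4.77 for Psmb9 and 4.63 for Nlrc5. Psmb8 changed by 2.89 (SE 1.00), and by 3.93 without CKO_20647, and Tapbp by 2.42 (SE 0.82), and by 3.22 without WT_21593. Of all calls in this comparison 47.2% were higher, and 57.3% under RLE scaling.

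The tumours differed widely from each other. From the lowest to the highest animal, H2-K1 ran over a 16.0-fold range in the 7 tumours and a 3.50-fold range in WT at 150 dpi, B2m over 6.94-fold and 2.88-fold ranges, and Tapbp over 5.09-fold and 31.2-fold ranges. The same animals stood at both ends. Tumor_16713 and Tumor_16839 had the lowest levels of H2-K1 (67.0 and 73.9 CPM), H2-D1, Nlrc5 (6.37 and 5.12 CPM), Psmb8 (3.62 and 2.69 CPM), Psmb9, Tap1 and Tap2. Tumor_21354 had the highest of every member except Tapbp, with 1073 CPM of H2-K1, 1807 of B2m and 94.0 of Nlrc5. Tapbp was highest in Tumor_16844 (34.0 CPM against 17.1 in Tumor_21354). Depth per tumour ran from 4.91 to 31.3 M counts. Tumor_16713, Tumor_16839 and Tumor_21256 were the shallowest, and they were also the lowest in every member except Tapbp. The part of depth in the differences between tumours was not tested. In the 7 tumours, each with 2 libraries, the libraries of an animal differed by a median of 1.07-fold for B2m to 1.87-fold for Psmb9. The largest gap was 9.41-fold, for Psmb9 in Tumor_16839, from 4 and 25 counts.

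Members were set against Nlrc5 over the 7 tumours on log2 CPM, 9 relations in all, with exact two-sided permutation p-values adjusted over the 9 relations. Psmb8 followed Nlrc5 most closely (r = 0.99, exact p 0.000198, adjusted 0.00179; rho = 1.0, exact p 0.000397), the 7 tumours having the same order in both. By r, Psmb9 (r = 0.98, exact p 0.000992, and rho = 0.93, exact p 0.00675) and H2-K1 (r = 0.95, exact p 0.00238, and rho = 0.86, exact p 0.0238) came next. By rho, Psmb10 (rho = 0.96, exact p 0.00278, and r = 0.93) stood above Psmb9, and Tap1 and Tap2 (rho = 0.89 each) above H2-K1. B2m had the lowest r of the 8 that passed (r = 0.88, exact p 0.0101, adjusted 0.0114, and rho = 0.75, exact p 0.0663). The relation of Tapbp to Nlrc5 did not pass (r = 0.17, exact p 0.731; rho = 0.11, exact p 0.84). Without the 2 tumours farthest from the median of Nlrc5 (Tumor_16839 and Tumor_21354), r was 0.99 for Psmb8, 0.96 for Psmb9, 0.90 for H2-K1, 0.83 for B2m, 0.79 for Tap1 and -0.12 for Tapbp. Over all 45 pairs of members the median r within the tumours was 0.92, the lowest being that of Tapbp with Nlrc5. Members share each tumour's RNA and scaling, so these relations describe 7 animals and are not independent of each other. Nlrc5 was 5.12 to 15.5 CPM in the shallowest tumours (Tumor_16713, Tumor_16839 and Tumor_21256) and 21.6 to 94.0 CPM in the others. The part of depth in these relations was not tested. The share of all genes that would pass against Nlrc5 was not computed, so the count of 8 is not shown to be particular to the members.

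**Figure D3:**
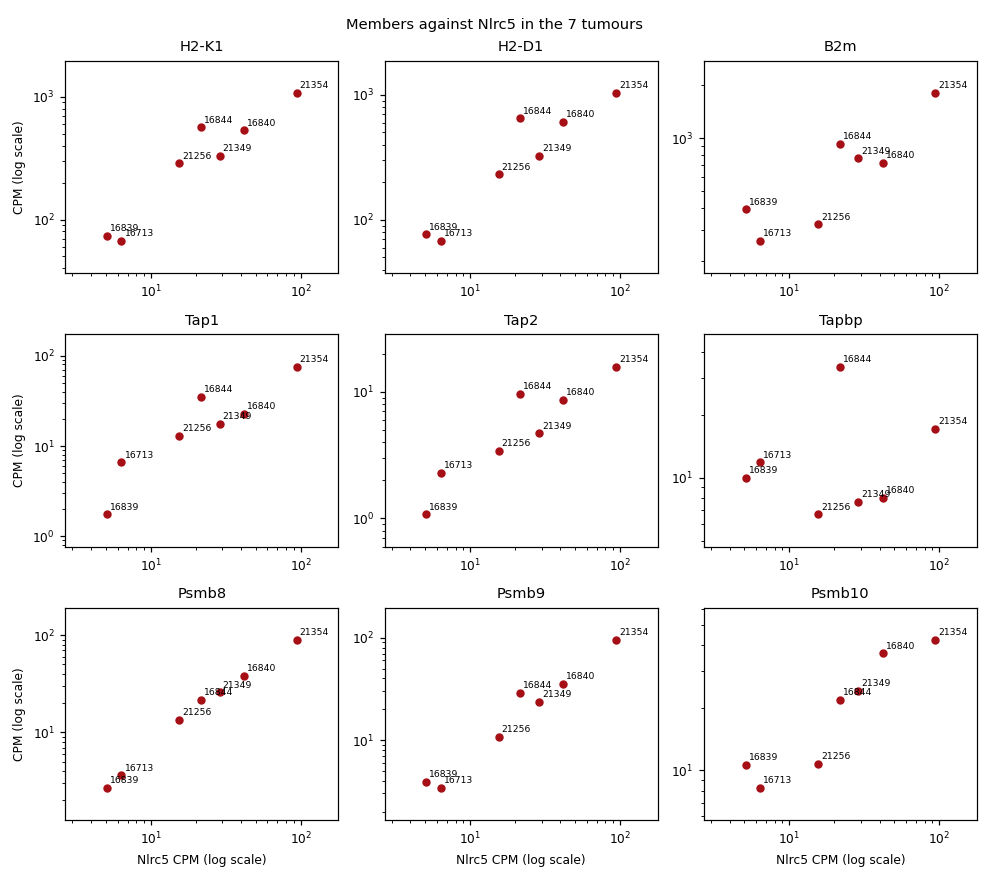
CPM of 9 members (vertical, log scale) against CPM of Nlrc5 (horizontal, log scale) in the 7 tumours, labelled by animal. Tumor_16713 and Tumor_16839 lie lowest on the Nlrc5 axis and Tumor_21354 highest, and Tapbp shows no such order (r = 0.17).

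Ratios within an animal do not depend on scaling between libraries, and 4 were tested in 4 comparisons (16 exact two-sided permutation tests, adjusted together). Each immunoproteasome subunit takes the place of a constitutive one: Psmb8 of Psmb5, Psmb9 of Psmb6 and Psmb10 of Psmb7. The geometric mean of Psmb8 to Psmb5 counts was 0.366 in tumours, 0.0218 in WT at 150 dpi and 0.0373 in CKO at 90 dpi. The log2 difference to WT was 4.07 (exact p 0.00233, adjusted 0.0101) and to CKO 3.30 (exact p 0.00466, adjusted 0.0149). In Tumor_21354 Psmb8 counts exceeded those of Psmb5 (log2 ratio 1.90), while in the other 6 tumours they were lower (-3.84 to -0.84). Psmb9 to Psmb6 was 0.178 in tumours and 0.0178 in WT, a log2 difference of 3.32 (exact p 0.00117, adjusted 0.00932), and 3.16 against CKO at 90 dpi (exact p 0.000583, the smallest this design can give, adjusted 0.00932). The size depends on the 0.5 added to each count: with 5 added the differences to WT were 2.96 for Psmb8 to Psmb5 and 2.44 for Psmb9 to Psmb6 (exact tests, adjusted p 0.0186 for each), and with the deepest library per animal Psmb9 to Psmb6 differed from CKO by 2.56.

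Psmb10 to Psmb7 was the ratio that differed between CKO and WT before tumours. At 12 dpi the log2 ratio was -3.12 to -2.67 in 7 CKO and -3.64 to -3.15 in 5 WT animals, without overlap, a difference of 0.365 (exact p 0.00253, the smallest over 792 assignments, adjusted 0.0101). At 90 dpi the difference was 0.09 (exact p 0.783), and in tumours against WT 1.02 (exact p 0.0408, adjusted 0.0932). For the heavy chains relative to B2m none of 4 comparisons passed. The log2 ratio of H2-K1 plus H2-D1 to B2m had a mean of -0.09 over the 7 tumours (SD 0.81) and of 0.18 over the 6 WT animals (SD 0.35; exact p 0.462). Of the 3 constitutive genes, Psmb6 rose in tumours over WT (log2 0.58, SE 0.21, adjusted p 0.0208), while Psmb5 (-0.09, SE 0.23, adjusted p 0.787) and Psmb7 (-0.01, SE 0.16, adjusted p 0.957) were not called.

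**Figure D4:**
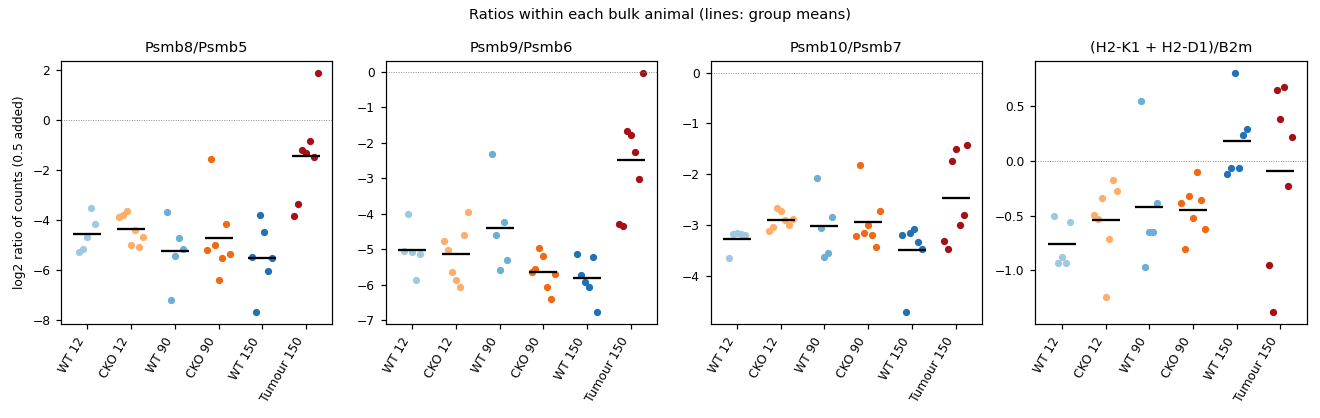
Log2 ratios of counts (0.5 added) in every bulk animal (points) with group means (lines), for the 3 immunoproteasome subunits over their constitutive partners and for the heavy chains over B2m. Tumour means lie above those of WT at 150 dpi for Psmb8/Psmb5 (-1.45 against -5.52) and Psmb9/Psmb6 (-2.49 against -5.81), and Psmb10/Psmb7 separates CKO from WT at 12 dpi.

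Other genes of the pathway were described by list, beside 24.3% of all genes called higher and 21.9% called lower in tumours over WT. Of 20 other class I heavy chains and class I-like genes, 16 were tested and 9 rose in tumours over WT (median log2 1.42), led by H2-Q7 (4.51, SE 0.59), H2-Q4 (4.02, SE 0.53) and H2-Q6 (3.61, SE 0.58), whose reads may be shared with H2-K1. Of 12 tested genes listed for loading and trimming 7 rose, among them Erap1, the aminopeptidase that trims peptides in the endoplasmic reticulum (1.29, SE 0.26), Sec61a1 of the translocon (1.53, SE 0.15) and Ggta1 (2.04, SE 0.40), a galactosyltransferase that neither loads nor trims peptides. Of 15 other proteasome genes 6 rose and 1 fell (median log2 0.26): the proteasome activator subunits Psme1 (1.05, SE 0.20) and Psme2 (0.81, SE 0.28) and Psmb4 (0.82, SE 0.18) rose most, and Psma3 was lower (-0.55, SE 0.19). Against CKO at 90 dpi 10 of 16, 7 of 12 and 3 of 15 genes of these lists rose, and 0, 0 and 1 fell, beside 26.4% of all genes higher and 22.6% lower. None of these lists had a call between CKO and WT at 12 or 90 dpi.

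Among 18 regulators of class I transcription 10 rose and 1 fell in tumours over WT, where 24.3% of all genes rose and 21.9% fell. Irf1, a transcription factor of the interferon response, had 3.64, 21.7 and 82.0 CPM in tumours and 1.13, 2.71 and 8.51 CPM in WT (log2 2.64, SE 0.52, adjusted p 7.29e-05). Irf8 (3.91, SE 0.60) and the class II transactivator Ciita (2.90, SE 0.92) rose too. In the same comparison 11 of 12 microglia and macrophage markers rose, and their part in the rises of Irf8 and Ciita was not tested. Nfyc, a subunit of the CCAAT-binding factor NF-Y, was lower (-0.89, SE 0.19). Of 10 genes of interferons and their receptors 7 were tested. The receptor genes Ifngr1 (1.13, SE 0.19), Ifngr2 (1.24, SE 0.23) and Ifnar2 (0.70, SE 0.22) rose and the kinases Jak1 (-0.36, SE 0.10) and Jak2 (-0.64, SE 0.17) fell. Ifng itself was at 0 counts in 5 of 7 tumours and in every other bulk animal, with at most 0.621 CPM.

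Microglia and macrophage markers were higher in tumours too, and their order over the tumours matched that of H2-K1 only in part. Of 12 microglia and macrophage markers 11 rose in tumours over WT (24.3% of all genes rose and 21.9% fell), and their summed level was 323 to 1178 CPM in tumours against 137 to 172 CPM in WT at 150 dpi. The defining marker Ptprc had 20.3 to 70.4 CPM in tumours and 1.53 to 22.7 CPM in WT, and Csf1r 29.6 to 162 against 17.6 to 33.0 CPM. The sum was highest in Tumor_21354 (1178 CPM) and Tumor_16844 (879 CPM), which were also first and second in H2-K1, and low in Tumor_16839 (354 CPM), which was low in the members. It was 662 CPM in Tumor_16713, lowest in H2-K1, and lowest (323 CPM) in Tumor_21256, which had 288 CPM of H2-K1. Of 12 T and NK cell markers 4 were tested and 2 rose; their sum was 2.83 to 33.2 CPM in tumours, highest in Tumor_21354, and 0.567 to 4.64 CPM in WT. Cd3e was at 0 in 2 of 7 tumours and 5 of 6 WT animals. Endothelial markers, from cells that also carry class I, summed to 110 to 324 CPM in tumours and 233 to 348 CPM in WT, with 0 of 10 higher and 2 lower. Neuron markers fell from 6101 to 9445 CPM in WT to 216 to 1284 CPM in tumours, with 7 of 8 called lower. The part of these cell types in the rise of the members was not tested.

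Of all other genes tested, the 6 whose log2 CPM over the 37 animals was most like the members' scaled mean were Ifi27 (Pearson r = 0.91), Irgm2 (0.90), H2-Q6 (0.90), Nkx3-2 (0.90), Rtp4 (0.89) and H2-Q4 (0.89). The 37 animals include the contrast of tumours with all others. Within the 7 tumours alone r was 0.97, 0.96, 0.96, 0.78, 0.69 and 0.94 in the same order. Over the 7 tumours Irgm2 had 73.5 ± 89.7 CPM and Ifi27 79.6 ± 45.9 CPM, and over the 6 WT animals at 150 dpi 4.64 ± 2.05 and 17.6 ± 6.08 CPM (SD in each case). Nkx3-2 had 1.38 ± 1.09 CPM in tumours and was at 0 in all 6 WT animals.

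In the small libraries, amplified by PCR rather than linearly as in bulk, the heavy chains and B2m were found in most libraries and Nlrc5 and Psmb9 in few. H2-K1 had a count above 0 in 50 of 56 10-cell libraries at 12 dpi and 56 of 56 at 90 dpi, and in 40 of 40 and 39 of 40 pool-and-split libraries. H2-D1 and B2m were detected about as often, in 51 and 49 of 56 10-cell libraries at 12 dpi and 56 of 56 each at 90 dpi. Psmb10 was found in 41 and 53 of 56, Psmb8 in 26 and 43, and Tap1 in 19 and 28 of 56 10-cell libraries at 12 and 90 dpi. Tap2 (14 and 13), Tapbp (13 and 13) and Nlrc5 (3 and 7 of 56) were rarer. Psmb9 was found in 4 of 56 10-cell libraries at 12 dpi (7.14%, 95% Wilson interval 2.81 to 17.0%), in 2 of 56 at 90 dpi, and in 0 of 40 pool-and-split libraries at each time, where the limit set by 3 libraries allows a share of up to 7.5% and the Wilson interval reaches 8.76%. A 10-cell library held counts of 1 to 9 members at 12 dpi (median 5) and 4 to 9 at 90 dpi (median 6). Intervals and limits cover counting error only, since PCR reads without molecular identifiers are not independent molecules.

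**Figure D5:**
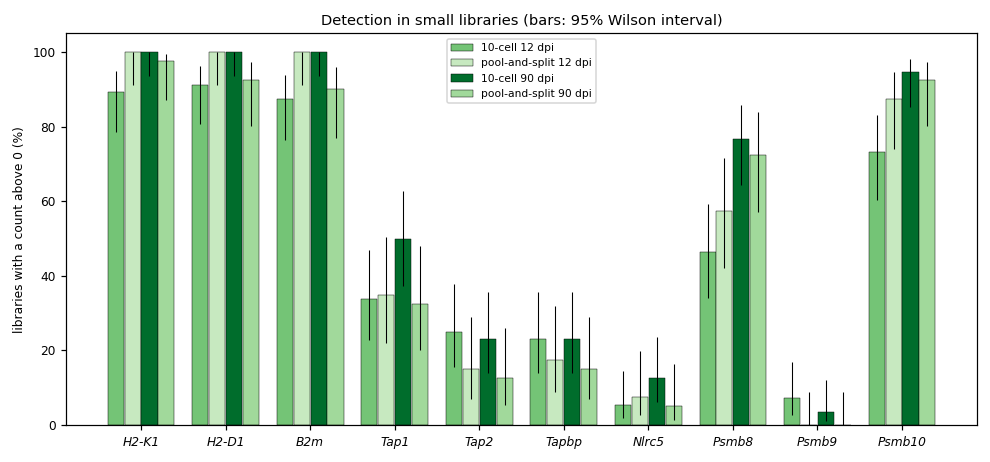
Percent of small libraries with a count above 0 for each gene (bars) with 95% Wilson intervals (lines), for 56 10-cell and 40 pool-and-split libraries at each of 12 and 90 dpi. H2-K1, H2-D1, B2m and Psmb10 were found in most libraries, and Nlrc5 and Psmb9 in few.

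For tests over time the libraries of a sex and title number were summed to 4 sets per kind and time. Of the members 8 passed the filter (not Nlrc5 and Psmb9), and 0 of 8 were called between 90 and 12 dpi in 10-cell sets (0% of 14500 genes; 0 unadjusted) or in pool-and-split sets (0% of 13408 genes; 1 unadjusted, Psmb10). DESeq2 called 0 in the 10-cell sets and 1 in the pool-and-split sets. H2-K1 in 10-cell sets had 177, 218, 143 and 342 CPM at 12 dpi and 342, 172, 534 and 300.3 CPM at 90 dpi, overlapping (log2 difference 0.29, SE 0.41). B2m had 99.8, 202, 122 and 231 CPM at 12 dpi and 62.3, 52.3, 193 and 127 CPM at 90 dpi (-1.09, SE 0.49, unadjusted p 0.0516, adjusted p 0.7). The pool-and-split sets had 50.0, 29.8, 88.2 and 120 CPM of Psmb10 at 12 dpi and 157, 261, 235 and 255 CPM at 90 dpi, without overlap. The log2 difference was 1.70 (SE 0.45, unadjusted p 0.00367, adjusted p 0.583), and DESeq2 called it (log2 1.64, adjusted p 0.0204). In the 10-cell sets of the same times Psmb10 differed by 0.15 (SE 0.51).

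Spread between libraries was compared between the kinds by the size of deviations from the set median on log2(CPM + 1), for genes detected in at least 50% of the small libraries. Of the members 5 qualified, H2-K1, H2-D1, B2m, Psmb8 and Psmb10. At 12 dpi 0 of 5 were called more variable in 10-cell libraries, where 0.124% of 8840 genes were (1 member unadjusted, H2-D1), and at 90 dpi 0 of 5 (0% of genes; 0 members unadjusted). The nearest at 12 dpi were H2-K1 (difference 0.79, SE 0.40, unadjusted p 0.0513, adjusted p 0.438 by limma) and H2-D1 (0.66, SE 0.34, unadjusted p 0.0495, adjusted p 0.434), and at 90 dpi the differences were -0.12 and -0.33. Libraries of a set may share an animal, so these p-values measure spread between libraries. Over the 112 10-cell libraries the summed level of H2-K1, H2-D1 and B2m had a Spearman rho of 0.41 with the summed microglia markers and 0.43 with the endothelial markers, and over the 80 pool-and-split libraries 0.19 and 0.32, all sharing library and depth. Csf1r, a microglia marker, was found in 41 of 56 10-cell libraries at 12 dpi and 55 of 56 at 90 dpi, and its part in the members' detection was not tested.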

How the data were processed

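RNA of laser-captured mouse brain cells was sequenced in 240 libraries. The deposited values are expected counts per gene, which per the submitters' processing notes come from RSEM with Bowtie2 and GRCm38; versions and the use of strand are not given in the sources used here. The table holds 34623 genes and 92 spike-ins, which were left out of totals and tests. Per the labels' protocols, bulk RNA (10 µm sections) was amplified linearly with T7 polymerase, and small libraries (8 µm sections) by PCR with Nextera XT.

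The 48 bulk libraries belong to 37 animals, and the 2 libraries of 11 animals were summed. Nothing more was known of the replicates than these animal numbers. Rounded counts went into edgeR 4.0.16 under R 4.3.3. Genes were kept by filterByExpr at a minimum count of 10 and a total of 15, scaling was by TMM, and the quasi-likelihood F test was run with sex as a covariate and all 37 animals in 1 fit, with Benjamini-Hochberg adjustment over all genes tested and calls under 0.05. CPM are counts per 1000000 of the scaled total, and a prior count of 2 was added for log2 CPM. The common biological coefficient of variation was 0.418. Small libraries were summed to sets that share time, sex and the last number of the title (14 10-cell or 10 pool-and-split libraries each), since the labels do not explain that number. Spread was compared with limma 3.58.1, and ratios (0.5 added to counts) and relations with exact permutation tests in scipy 1.17.1. The scripts were tested on simulated data. Precision follows depth, which is given in the text.

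The members, lists and tests were chosen with earlier results of these data known. Named are all 10 members, the 3 largest rises and falls called in each pathway list, Ifng, Irf1, Psmb5, Psmb6 and Psmb7, and the 6 genes most like the members; 1 gene under this rule is not reported here. Promoters are from RefSeq. Alternatives were DESeq2 1.42.0, RLE scaling, no filter, no sex covariate, the deepest library per animal, the compared groups alone, other pseudocounts and detection shares, a replicate block and leaving out each animal or set. Reads were not analysed here.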

Additional observations from a re-analysis of the deposited data

Results flagged for a closer look

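In 100 groups of 4 to 7 animals or sets, 16 had 1 value far from the rest. For normally distributed values chance gives about 1 in 20 groups, and the rate for CPM was not tested. Tumor_21354 stood apart in Nlrc5 (94.0 CPM, the other tumours 5.12 to 41.9), Psmb8 (89.1 CPM against 2.69 to 38.3) and Psmb9 (94.8 CPM against 3.40 to 35.6), and Tumor_16844 in Tapbp (34.0 CPM against 6.67 to 17.1). CKO_20647 at 90 dpi stood apart in Psmb8 (14.4 CPM against 0.491 to 2.69) and Psmb10 (30.9 CPM against 11.0 to 16.5), and its libraries differ as described above. At 12 dpi, CKO_22364 had 4.92 CPM of Tap1 (others 0 to 2.09), CKO_22017 had 6.67 CPM of Tap2 (others 1.39 to 2.18) and WT_22281 had 54.1 CPM of H2-D1 (others 27.6 to 34.2). The 9.48 CPM of Psmb9 in WT_21167 (others 1.66 to 3.66) is 1 count.

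Among the sets of small libraries only the rarely detected Tapbp and Nlrc5 had such a value. Tapbp had 11.7 CPM in the second female 10-cell set at 90 dpi (others 0.514 to 1.31), 11.6 CPM in the second male pool-and-split set at 12 dpi (others 0 to 1.79) and 25.1 CPM in the first male pool-and-split set at 90 dpi (others 0 to 3.30). Nlrc5 had 3.62 CPM in the second male 10-cell set at 12 dpi (others 0 to 0.128), 8.82 CPM in the first male 10-cell set at 90 dpi (others 0.0324 to 0.286) and 7.29 CPM in the first male pool-and-split set at 90 dpi (others 0 to 0.0979).

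The genotype difference was larger at 150 dpi (tumours) than at 90 dpi (CKO) for 9 members, by an interaction term in edgeR. The change on the log2 scale was 5.49 for Psmb9, 5.26 for Nlrc5, 3.44 for H2-K1, 2.89 for Psmb8, 2.70 for B2m, 2.54 for Tap1, 2.52 for Tap2, 2.42 for Tapbp and 1.99 for H2-D1.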

How the results depend on the processing

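Of 5236 alternative values for 146 results, 5219 kept their verdict, and no called result changed sign. Among results not called, 88 values of 32 results changed sign (lowest adjusted p 0.731). Members called in tumours against WT stayed at 10 when any 1 animal was left out. Against CKO at 90 dpi the count ran from 8 to 9, and with the deepest library per animal it was 10, Psmb10 being added (log2 0.61, adjusted p 0.0441). For the change of the genotype difference from 90 to 150 dpi it ran from 7 to 9. There Tap1 was lost without WT_22185 (adjusted p 0.0577) and with the deepest library (0.0527), and Psmb8 without WT_22254 (0.0538). In pool-and-split sets DESeq2 called 1 member, Psmb10, where edgeR called 0, and the cause was not tested. The Psmb9 to Psmb6 difference of CKO and WT at 90 dpi passed without WT_22185 (-1.53, adjusted p 0.0485). The Psmb10 to Psmb7 difference of tumours and WT passed without Tumor_16839 (1.19, adjusted p 0.0346) and with the deepest library (1.08, adjusted p 0.0435). The relation of B2m to Nlrc5 was lost without Tumor_16713 (r = 0.84, adjusted p 0.0516) or Tumor_21354 (r = 0.77, adjusted p 0.114). With the replicate block, 0 members were called in both set comparisons, as without it. Within a kind, same-numbered sets of different times did not deviate together (correlations -0.039 to 0.018). Sharing of an animal or batch within a time or between the kinds was not tested. The correlations therefore do not show what the number stands for. Depth limits Nlrc5 in WT at 150 dpi (0 to 13 counts) and all members in WT_21167, and was not tested as a cause of the few Nlrc5 and Psmb9 detections in small libraries. With the deepest library Psmb8 changed by 3.69 against CKO and by 3.52 between the genotype differences.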
